A study of Arabidopsis thaliana with 2 samples.

Results

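Plant receptor-like kinases sit in the plasma membrane, bind a ligand outside the cell and pass the signal on through a kinase domain inside it. Described here are 8 such genes that act in the growth of the integuments, the cell layers that enclose the embryo sac and later become the seed coat. They are set by a list of loci and not by measured values: ER (AT2G26330), ERL1 (AT5G62230), ERL2 (AT5G07180), SUB (AT1G11130), ACR4 (AT3G59420, named CR4 in RefSeq), SERK1 (AT1G71830), SERK2 (AT1G34210) and BAK1 (AT4G33430). All 8 had values in the deposited table, out of 33557 identifiers with values.

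The series holds RNA sequencing of mature ovules of Arabidopsis thaliana from 2 genotypes, with 1 library each. Unpollinated ovules of ms1, a male-sterile line, stood in for the wild type, and the other library came from myb98 ovules, which carry a defect in MYB98, a transcription factor of the synergids, the pair of cells beside the egg cell that attract pollen tubes. Per the labels' protocols, plants grew at 22 °C with 16 h of light, stamens were removed from stage 12 flowers, and ovules from about 50 pistils were picked by hand 36 h later, so each library pools many ovules. The accession of either line is not given in the sources used here, which bears on ER, because the common laboratory accession Landsberg erecta carries a mutated ER allele and a transcript level does not show whether the protein works. Line, genotype and library cannot be told apart.

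In the ER family, ER, ERL1 and ERL2 are closely related leucine-rich repeat receptors that bind small secreted peptides of the EPF and EPFL family and signal through a MAP kinase cascade. They share the control of organ growth, integument growth and stomatal spacing. SERK1, SERK2 and BAK1 (also called SERK3) have short extracellular domains and serve as co-receptors for many ligand-binding receptors, among them the brassinosteroid receptor BRI1. SUB (STRUBBELIG) guides cell division planes and the outer integument, and ACR4 acts in epidermal cells and in the integuments through a receptor that lacks leucine-rich repeats.

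The genes differ in the part of the kinase domain that carries out phosphate transfer. The coding strand around the catalytic loop, read from the TAIR10.1 genome and RefSeq annotation, is shown because it separates SUB from the other 7. Capitals mark the codons of the loop's His-Arg-Asp triad, or of the aligned residues in SUB. The order is the same as in the results, and each stretch has 42 bases without an intron.
ER: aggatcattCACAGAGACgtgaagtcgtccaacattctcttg
ERL1: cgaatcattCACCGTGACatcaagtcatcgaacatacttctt
ERL2: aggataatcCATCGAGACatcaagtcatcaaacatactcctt
SUB: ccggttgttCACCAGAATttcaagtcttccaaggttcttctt
ACR4: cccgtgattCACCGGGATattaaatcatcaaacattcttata
SERK1: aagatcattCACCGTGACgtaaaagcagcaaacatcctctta
SERK2: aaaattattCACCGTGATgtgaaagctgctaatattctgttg
BAK1: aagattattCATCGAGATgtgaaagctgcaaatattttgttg
The triad read His-Arg-Asp in 7 genes and His-Gln-Asn in SUB, which is known as an atypical kinase. In the order listed, the stretches lie at chr2:11209039-11209080 (minus strand), chr5:25001453-25001494 (plus), chr5:2228415-2228456 (minus), chr1:3726397-3726438 (plus), chr3:21960612-21960653 (minus), chr1:27021148-27021189 (plus), chr1:12462068-12462109 (plus) and chr4:16087311-16087352 (minus).

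Gene structure followed the families. ER (chromosome 2, 11208080 to 11214662), ERL1 (chromosome 5, 24996129 to 25002439) and ERL2 (chromosome 5, 2227439 to 2233587) each have 27 exons. SERK1 (chromosome 1, 27018158 to 27022117) and SERK2 (chromosome 1, 12458564 to 12462905) have 11, and BAK1 (chromosome 4, 16086311 to 16090832) has 12. SUB (chromosome 1, 3722708 to 3727450) has 16 exons, and ACR4 (chromosome 3, 21959646 to 21963180) is a single exon. The longest annotated transcripts run from 2554 nt in SERK2 to 3985 nt in ER, which places all 8 among the long transcripts.

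The relatives were distinct in sequence. The coding sequences of ERL1 and ERL2 were 82.3% identical and those of ER and ERL1 64.6%, while SERK1 and SERK2 were 79.4% identical and SERK2 and BAK1 74.1%. No window of 50 bases in any of the 8 transcripts recurred in the transcript of a relative, judged on the longest annotated transcript of every gene. The windows that did recur, 0.954% in ERL1, 4.32% in SERK1, 0.319% in SERK2 and 1.05% in BAK1, lay where exons overlap those of a neighbour on the opposite strand. Library strandedness is not given in the sources used here, so reads in those overlaps cannot be assigned.

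Levels are given in FPKM, the number of fragments divided by transcript length and library size, so genes can be compared per length. From the smallest values above 0, the libraries held about 50000000 fragments (wild-type) and 44400000 fragments (myb98). A gene counts as expressed at 1 FPKM or more in either library, which 16303 genes reached. Without replicates there is no SD and no test, and a difference is described by its size only. The log2 ratio is log2((myb98 FPKM + 1)/(wild-type FPKM + 1)), which understates changes of low genes. A gene is called higher at 1 or above and lower at -1 or below (2-fold on this scale), a label of size and not of significance. Over all expressed genes 2.74% were lower and 2.95% were higher. In each short list below, 0 called genes is therefore near this background. MYB98 (AT4G18770) stood at 1.35 FPKM in the wild-type and 0.474 FPKM in the myb98 library, the direction the labels imply, although 23.7% of its 50-base windows are shared with the overlapping gene AT4G18780. At these low levels its log2 ratio was -0.67, so the size rule did not call the mutated gene lower.

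Markers of the labelled tissue were present. All 7 ovule and integument markers were expressed, with STK, an ovule identity gene, at 106 and 123 FPKM and INO, which marks the outer integument, at 29.6 and 28.4 FPKM (wild-type first, here and below). The log2 ratios of the 7 ran from -0.45 (SHP1, 40.1 and 29.1 FPKM) to 0.21 (STK). Their median was -0.09, and -0.17 against genes of the same length. All 4 epidermal markers were expressed, and their summed level was 812 and 815 FPKM. Other tissues gave lower sums. The phloem genes summed to 6.21 and 7.76 FPKM, and all 3 were expressed. SUC2 stood at 2.79 and 5.01 FPKM (log2 ratio 0.67), while APL and RTM1 had log2 ratios below 0. The 4 pollen genes summed to 1.56 and 1.29 FPKM. Of these, 1 was expressed (ANX1, 1.28 and 1.26 FPKM) and 2 were listed at 0 in both libraries. The carpel list summed to 54.0 and 41.3 FPKM, of which ALC gave 51.0 and 36.9 FPKM, while HEC1 and HEC2 were listed at 0 in both. The smaller sum in myb98 came from ALC alone. The other expressed carpel genes, SPT (log2 ratio 0.397) and NTT, had log2 ratios above 0, and the median of the 3 expressed was 0.201. The part of carpel tissue in the levels below was not tested.

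All 8 receptor genes were expressed in both libraries, with ER and ERL1 well above the rest. ER stood at 58.1 FPKM in wild-type and 53.4 FPKM in myb98 ovules. ERL1 stood at 37.96 and 29.2 FPKM, and ERL2 at 7.56 and 6.64 FPKM. ER was thus the most abundant of the family and ERL2 the least in both libraries, 7.69-fold apart in the wild type and 8.04-fold in myb98. ER made up 56.1% of the family's summed FPKM in the wild type and 59.8% in myb98, ERL1 36.6% and 32.8%, and ERL2 7.29% and 7.44%.

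ER also stood high among receptor kinases in general. Of 383 measured genes whose annotated product names a receptor-like kinase, or which are among the 8, ER had the highest level in the wild type and rank 2 in myb98. ERL1 had rank 12 and rank 15, and ERL2 rank 64 and rank 71. The list rests on product names, which caught 5 of the 8 genes unaided, so it is incomplete. Among all expressed genes, ER exceeded 96.4% in the wild type and 95.4% in myb98, and ERL2 exceeded 55.7% and 52.6%.

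**Figure D1:**
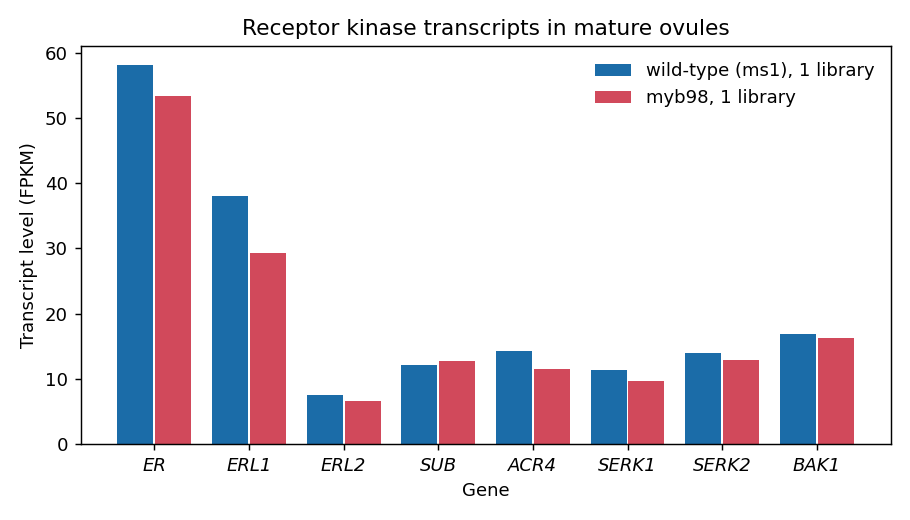
Transcript level (FPKM, linear axis from 0) of the 8 receptor kinase genes, with 1 bar for the single wild-type (ms1) library and 1 for the single myb98 library, and so no error bars. ER and ERL1 stand above the other 6, which lie between 6.64 and 16.9 FPKM in both libraries.

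The co-receptors were present at similar levels to one another. BAK1, the co-receptor shared by brassinosteroid and immune receptors, stood at 16.9 and 16.3 FPKM. SERK2 stood at 13.97 and 12.9 FPKM and SERK1, its closest relative by sequence among the 3, at 11.4 and 9.73 FPKM. The order BAK1, SERK2, SERK1 was the same in both libraries, with BAK1 1.49-fold and 1.67-fold above SERK1. Expressed as shares of the summed level of the 3, BAK1 held 40.0% and 41.8%, SERK2 33.1% and 33.2%, and SERK1 26.9% and 25.01%.

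SUB and ACR4 lay in the same range as the co-receptors. SUB stood at 12.1 FPKM in the wild type and 12.8 FPKM in myb98, and ACR4 at 14.3 and 11.6 FPKM. In the wild type the order of levels was ER, ERL1, BAK1, ACR4, SERK2, SUB, SERK1, ERL2. In myb98 it was ER, ERL1, BAK1, SERK2, SUB, ACR4, SERK1, ERL2, so ACR4, SERK2 and SUB exchanged places and the other 5 kept theirs. With 1 library per genotype no spread is known against which neighbours in this order could be told apart.

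None of the 8 genes differed 2-fold between the libraries. By the size rule 0 of 8 were lower in myb98, against 2.74% of all expressed genes, and 0 of 8 were higher, against 2.95%, so for a set this small the count is near the background. The summed level of the 8 was 172 FPKM in wild-type and 152 FPKM in myb98 ovules, or 88.5%. The log2 ratio was below 0 for 7 genes and above 0 for SUB. Their median was -0.14, beside -0.0039 over all expressed genes.

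ERL1 had the log2 ratio farthest from 0, at -0.37, with 77.0% of the wild-type FPKM in myb98. ACR4 had 81.1% (log2 ratio -0.28), SERK1 85.6% (-0.21) and ERL2 87.9% (-0.16). ER had 91.8% (-0.12) and SERK2 92.4% (-0.11), while BAK1 had 96.2% (-0.05) and SUB 105% (0.07). These values rest on between about 1063 fragments (ERL2, myb98) and about 11582 fragments (ER, wild-type), so counting error was small beside a 2-fold difference. The ratios nearest 0, those of BAK1 and SUB, may be near its size, so their sign is uncertain. Differences between ovule samples are not covered by counting error. In whole ovules, fewer cells of a type and less RNA per cell cannot be told apart.

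The ratios lay close to those of other long transcripts. Over expressed genes the median log2 ratio was 0.33 for 2361 genes with transcripts up to 1000 nt and -0.39 for 694 genes above 4000 nt. Over the 2499 expressed genes in the length range of the 8 it was -0.20, with an interquartile range of -0.41 to 0.02. Set against the 500 expressed genes nearest in transcript length, the 8 had log2 differences between -0.12 (ERL1) and 0.27 (SUB), with 4 below 0 and 4 above, and a median of 0.03. ER changed from -0.12 to 0.16 by this step and BAK1 from -0.05 to 0.10, so the sign of such small ratios depended on it.

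**Figure D2:**
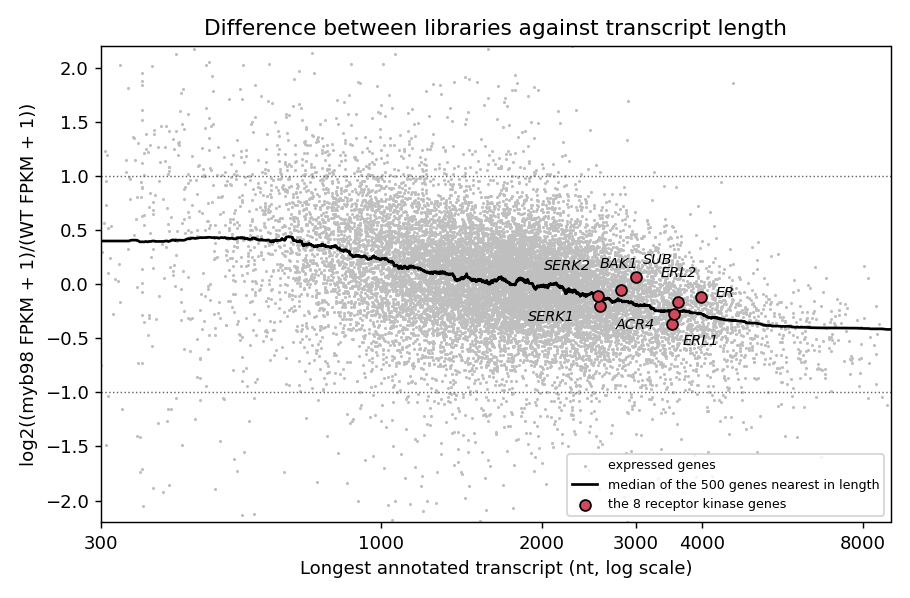
Log2 ratio of myb98 to wild-type FPKM (pseudocount 1) against the longest annotated transcript (nt, log axis) for expressed genes in grey, with the median of the 500 genes nearest in length as a line and the 8 receptor kinase genes as red points. The red points lie near the falling line and inside the dotted lines at -1 and 1, and 216 of the 16212 expressed genes with a length lie outside the axes.

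Of the 162 expressed receptor-like kinases, 2 were lower and 0 were higher in myb98 by the size rule (1.23% and 0%), against 2.74% and 2.95% of all expressed genes. Their median log2 ratio was -0.03, and 0.12 against genes of the same length. By distance on the 2 log2(FPKM + 1) values, the nearest kinase to ER was AT3G56370, an LRR kinase gene at 47.5 and 55.5 FPKM. The nearest to ERL1 was PERK1 (39.0 and 33.7 FPKM) and to ERL2 it was PXY (7.53 and 6.05 FPKM). AT5G10020 (12.5 FPKM in both) was nearest to both SUB and ACR4. AT5G67200 (10.7 and 9.86 FPKM) was nearest to SERK1, FEI1 (13.8 and 14.2 FPKM) to SERK2 and AT4G37250 (17.8 and 16.7 FPKM) to BAK1. With 2 libraries, such closeness says only that the levels are alike.

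Only some of the ligand genes of the ER family were expressed. Of 11 EPF and EPFL genes, 6 were expressed, and 0 of these were lower and 0 higher in myb98 by the size rule. Their median log2 ratio was 0.04, and -0.21 against genes of the same length. AT5G10310, annotated as an EPF-like protein, stood at 15.6 and 11.3 FPKM and was the highest in the wild type. EPFL4, the highest in myb98, stood at 9.58 and 13.8 FPKM and EPFL5 at 7.83 and 9.97 FPKM. EPFL4, EPFL5 and EPFL6 (8.92 and 7.41 FPKM) belong to the branch known to act on stem growth through ER. EPFL9 (STOMAGEN), which promotes stomata in leaves, was at 7.58 and 6.16 FPKM. AT4G37810, annotated as an EPF-like protein, stood at 0.295 and 1.16 FPKM, or about 13.3 and 46.3 fragments. It counts as expressed only through the myb98 library. Its log2 ratio was 0.74. That value was 1.67 with a pseudocount of 0.1, which passes the size rule, 0.22 with a pseudocount of 5 and 0.47 against genes of its length. AT3G13898, also annotated as an EPF-like protein, was at 0.637 and 0.511 FPKM and so does not count as expressed. In the wild type it lay above AT4G37810.

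Of the genes that act with the ER family in stomatal patterning, EPF1, EPF2 and TMM were near 0. EPF1, a ligand that spaces stomata, was listed at 0 in the wild type and stood at 0.0778 FPKM in myb98, and EPF2 was at 0.0587 and 0.0413 FPKM. TMM, a receptor-like protein that works with the ER family in stomatal lineage cells, stood at 0.0626 and 0.137 FPKM, or about 5.74 and 11.1 fragments. Of the stomatal transcription factors, SPCH was at 0.0239 and 0.0190 FPKM, MUTE was listed at 0 in both, and FAMA was at 0.00845 FPKM and listed at 0. The ER family transcripts were thus measured in tissue with at most traces of stomatal lineage transcripts.

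The MAP kinase cascade that acts after the ER family was expressed throughout. YDA, its entry kinase, stood at 8.93 and 8.91 FPKM. MKK5 stood at 9.29 and 9.20 FPKM and MPK6, the most abundant of the list, at 17.9 and 19.2 FPKM. MPK3 stood at 5.17 and 7.24 FPKM (log2 ratio 0.42). MKK4, which works in parallel with MKK5, was at 5.03 FPKM in the wild type and 11.7 FPKM in myb98, a 2.32-fold difference (log2 ratio 1.07, 1.08 against genes of its length and 0.74 with a pseudocount of 5). It was the 1 gene of 5 expressed in the list that was called higher, and 0 were lower, against 2.95% and 2.74% of all expressed genes. Over all lists together the share called higher was 2.22%, so the call describes MKK4 and not the list. The annotated exons of MKK4 and MKK5 each overlap those of a neighbouring gene, although their longest transcripts share no window of 50 bases with it. MPK6 exons overlap other genes, also without a shared window. MPK3 shares 7.9% of its windows with the overlapping gene AT3G45645, a limit on its values.

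**Figure D3:**
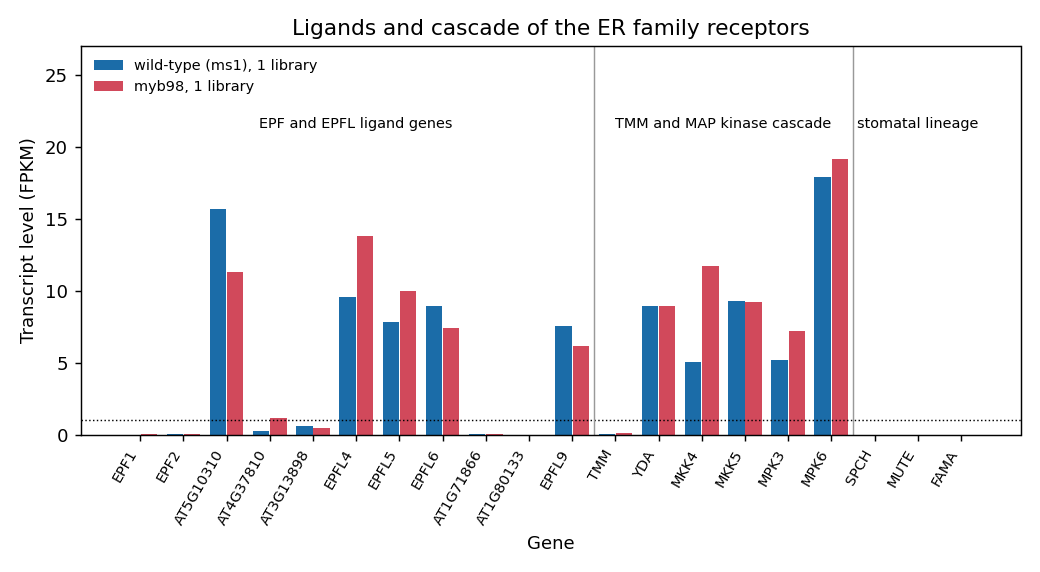
Transcript level (FPKM, linear axis from 0) of the EPF and EPFL ligand genes, TMM with the MAP kinase cascade, and 3 stomatal lineage genes, with 1 bar per library and no error bars. The dotted line marks 1 FPKM; EPF1, EPF2, TMM and the stomatal lineage genes lie under it in both libraries, while MKK4 reaches 5.03 FPKM in the wild type and 11.7 FPKM in myb98.

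Among the relatives of BAK1, the SERK genes outside the 8 were low. SERK4 stood at 2.61 and 3.37 FPKM and SERK5 at 1.97 and 1.503 FPKM. Over all 5 SERK genes, SERK4 and SERK5 made up 5.58% and 4.20% of the summed level in the wild type and 7.71% and 3.43% in myb98. Their coding sequences are 94.1% identical, and 23.1% of the 50-base windows of SERK4 recur in SERK5, so the split between these 2 is uncertain. The BIR genes, whose products hold SERK proteins back from their partners, included BIR1 at 8.70 and 9.04 FPKM and BIR2 at 4.12 and 4.96 FPKM. AT1G27190, an LRR kinase gene placed in the same list, was at 20.3 and 21.7 FPKM. None of the 2 SERK and 3 BIR-list genes was called lower or higher. Their median log2 ratios were 0.02 and 0.09, and 0.10 and 0.21 against genes of the same length.

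The receptors that BAK1 and its relatives serve varied widely in level. Of 15 listed, 10 were expressed. PEPR1, a receptor for damage peptides, stood at 49.9 and 44.8 FPKM. BRI1 stood at 40.6 and 43.5 FPKM, while its relative BRL3 was at 2.50 and 2.46 FPKM. EMS1, known for its role in anther cell fate, was at 44.9 FPKM in the wild type and 30.1 FPKM in myb98 (log2 ratio -0.56, or -0.28 against genes of its length). GSO2, which acts in forming the cuticle of the embryo, was at 3.18 and 1.05 FPKM. It was the 1 gene of the list called lower (log2 ratio -1.03), and 0 were higher, against 2.74% and 2.95% of all expressed genes. The call ended against genes of its transcript length (log2 difference -0.70), with a pseudocount of 5 (log2 ratio -0.43) and at a minimum of 5 FPKM, which it did not reach. The median log2 ratio of the 10 was -0.04, and 0.25 against genes of the same length.

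The brassinosteroid pathway after BRI1 had 5 expressed genes of 6, with 0 lower and 0 higher (median log2 ratio -0.22). BIN2, the kinase that holds the pathway off, stood at 20.2 and 19.5 FPKM. The transcription factor genes BZR1 and BES1 stood at 17.0 and 18.6 FPKM and at 20.8 and 15.6 FPKM. BZR1 shares 23.6% and BES1 36.7% of their 50-base windows with other annotated transcripts, which include each other's, so their split is uncertain. BSK1, a kinase that passes the signal on from BRI1, was at 7.92 and 6.15 FPKM (log2 ratio -0.32).

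SUB was expressed beside the genes listed as its partners and most of its family. QKY, a membrane protein that binds SUB, stood at 6.65 and 7.20 FPKM, and AN at 19.2 and 15.6 FPKM. AT1G64760, annotated as a family 17 glycosyl hydrolase, stood at 4.45 and 9.81 FPKM, a log2 ratio of 0.99 and just under the size rule, which it passed with a pseudocount of 0.1 (1.12). By that rule 0 of the 3 were lower and 0 higher (median log2 ratio 0.10, and 0.37 against genes of the same length). Of the 8 other STRUBBELIG family genes 5 were expressed, and 0 were lower and 0 higher (median log2 ratio -0.09, and 0.15 against genes of the same length). SRF8 exceeded SUB, at 16.1 and 20.3 FPKM, while SRF3 was at 6.90 and 6.40 FPKM, SRF7 at 6.88 and 5.68 FPKM and SRF6 at 7.50 and 4.62 FPKM (log2 ratio -0.60). SRF6 and SRF7 exons overlap neighbouring genes.

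ACR4 stood apart from its own relatives. CCR1 was at 0.157 and 0.234 FPKM, CCR2 at 0.0849 and 0.120 FPKM, CCR3 at 0.214 and 0.297 FPKM, and CCR4 was lower still, so that 0 of the 4 were expressed while ACR4 was at 14.3 and 11.6 FPKM. The genes listed with ACR4 for epidermal identity ranged widely in level. ATML1, a homeodomain factor of the epidermis, stood at 71.3 and 72.6 FPKM and its partner PDF2 at 61.2 and 59.7 FPKM. ALE2, a receptor-like kinase known to act with ACR4 in the leaf epidermis, was at 11.7 and 12.9 FPKM. AT5G01075 stood at 3.46 and 3.54 FPKM, and ALE1, a protease of the endosperm needed for the embryo's cuticle, was listed at 0 in the wild type and stood at 0.0159 FPKM in myb98. CLV1, a receptor that pairs with ACR4 in the root, was at 2.97 and 3.71 FPKM (log2 ratio 0.25), and CLE40, their root ligand gene, was listed at 0 in both libraries. DEK1, a calpain needed for epidermal fate, stood at 15.4 and 9.23 FPKM (log2 ratio -0.68, or -0.27 against genes of its length). Of the 6 expressed genes in this list 0 were lower and 0 higher (median log2 ratio 0.03, and 0.25 against genes of the same length).

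**Figure D4:**
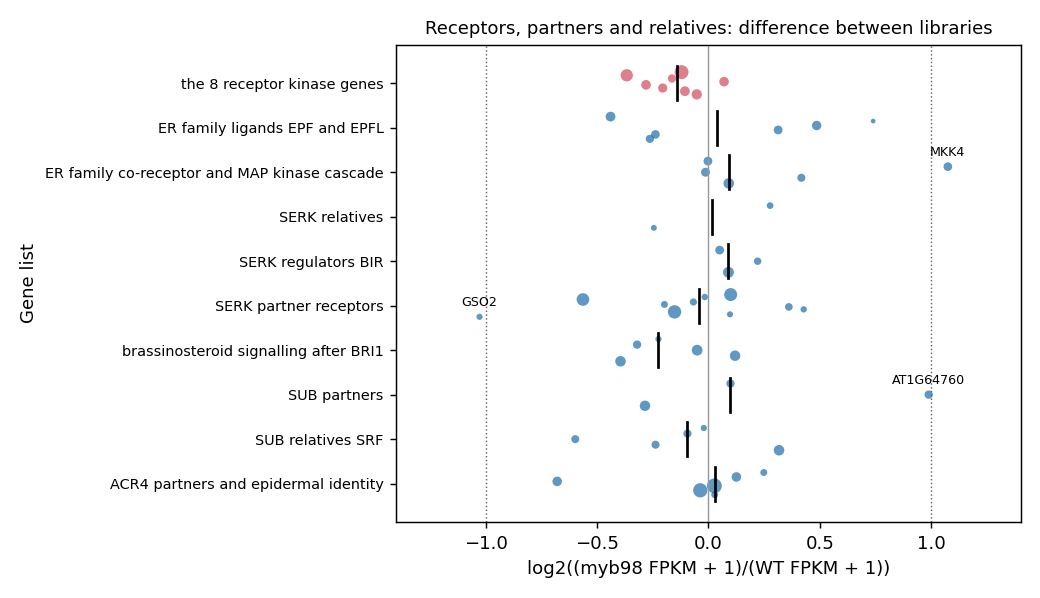
Log2 ratio of myb98 to wild-type FPKM (pseudocount 1) for the 8 receptor kinase genes in red and the expressed genes of 9 lists in blue, with point area growing with mean FPKM, black bars at the medians and dotted lines at -1 and 1. MKK4 lies beyond 1 and GSO2 beyond -1, and every red point lies between -0.37 and 0.07.

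Over all lists together, 45 of 66 genes were expressed, of which 1 (2.22%) was lower and 1 (2.22%) was higher, shares near those of all expressed genes. Their median log2 ratio was -0.0022, and 0.15 against genes of the same length.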

How the data were processed

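The deposited table gives 1 FPKM value per gene for each of the 2 libraries, made by the authors. Per the submitters' processing notes, the build was TAIR10 and the tools were TopHat2 2.0.14 with Cuffdiff 2.2.1. Annotation version, strandedness and scaling between libraries were not given in the sources used here. Since no header states the unit, it was read from the values. A value of 0 can be a failed estimate and is given as listed at 0.

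Of 35548 identifiers, 1991 were blank and 32810 of the rest matched RefSeq TAIR10.1, the source of names, positions and sequences. Depth was estimated from the smallest values of genes with a lone transcript of at least 1500 nt (FPKM times length in kilobases was 0.0200 and 0.0225 for 1 fragment). With 1 library per genotype no test was run. The length comparison was tested on simulated data. Python 3.11.15, pandas 2.3.3 and Biopython 1.88 were used.

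The genes named are the 8 receptors, MYB98, the nearest kinase to each receptor, and of each of 10 lists the 3 highest and the 2 largest log2 ratios. EPFL6, EPFL9, EPF1, EPF2, AT3G13898, TMM, BRL3, CCR4, CLE40, ALE1, AT5G01075 and the markers were named after their values were seen. Members and lists were chosen with earlier results of these data known. Alternatives covered the pseudocount, scaling, transcript length, size rule and expression minimum.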

Additional observations from a re-analysis of the deposited data

How the results depend on the processing

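No member passed the size rule under any of the 9 alternatives tried, and the log2 ratio of each of the 8 genes stayed on its side of the rule in 72 of 72 comparisons. Some of these comparisons could not have come out otherwise. All 8 genes lie above 5 FPKM, so changing the expression minimum left their values as they were. A 4-fold rule cannot call a gene that a 2-fold rule does not. The members' median log2 ratio was -0.14 and became 0.034 against genes of the same transcript length, the step that takes out the length trend. The list genes called were few, so their counts shifted easily. The number lower, 1 as reported, was 0 with a pseudocount of 5, against genes of the same length, with a 4-fold rule and at a minimum of 5 FPKM, and 3 with a 1.5-fold rule. The number higher, also 1, was 3 with a pseudocount of 0.1 and with a 1.5-fold rule (AT1G64760 and AT4G37810 joined MKK4 in both), and 0 with a pseudocount of 5 and with a 4-fold rule. With the pseudocounts and size rules that changed these counts, the shares of all expressed genes called moved in the same way. Against genes of the same length (2.87% lower) and at a minimum of 5 FPKM (3.33% lower), the share lower did not fall from 2.74%. With a pseudocount of 0.1, 4.86% were higher, against 2.95% as reported. With a 1.5-fold rule, 9.33% were lower, against 2.74%, and the share higher rose too. The added calls therefore do not set the lists apart from other genes. MKK4 kept its call except with a pseudocount of 5 and a 4-fold rule. Of 62 list medians 9 moved by more than 0.1, and 7 of these did so against genes of the same length. Among those, the median changed sign for the EPF and EPFL ligand genes (to -0.21), the receptors that SERK proteins serve (to 0.25) and the STRUBBELIG family (to 0.15). The median rose without a change of sign for the MAP kinase cascade (to 0.25) and the BIR list (to 0.21). It also rose for the SUB partners (to 0.37) and the genes listed with ACR4 for epidermal identity (to 0.25). Scaling to a common median or upper quartile shifted log2 ratios by 0.03 or less in size. No paired analysis was possible because each genotype has 1 library. Replicates, and with them the spread between ovule samples, are the main limit.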
